A study of Mus musculus with 16 samples.

Results

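Cdk8 occupancy was mapped by chromatin immunoprecipitation with sequencing (ChIP-seq) in mouse neural progenitor cells that received an siRNA against Cbx3 or a control siRNA. The regions described here are those at which Cdk8 was listed in both siRNA arms. They were the merged regions of the control list (50 bp windows at most 200 bp apart) that overlapped, by at least 1 bp, a merged region of the Cbx3 siRNA list. The stretch from 21 to 24 Mb of chromosome 13 and a short stretch near 40 Mb of chromosome 17, both dense in Cdk8, were left out. The rule found 547 such regions, called shared regions below, of 5475 control regions outside these stretches (9.99%) and of 5574 control regions in all. They overlapped 550 of the 6094 regions listed after Cbx3 siRNA.

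All cells came from V6.5 mouse embryonic stem cells, which were turned into neural progenitors by way of 4 days as embryoid bodies and then grown as a monolayer. Progenitors of the siRNA arms were harvested 72 hours after transfection with siRNA against Cbx3, or against luciferase as the control. Cdk8, Med26 and RNA polymerase II (Pol II) had 1 library per arm. Pol II had 1 further library and Cbx3 had 2 (sets 1 and 2) of progenitors with no treatment. How much Cbx3 was left after its siRNA was not measured in these files, and the progenitor identity of the cells was not checked, because regions were not assigned to genes.

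Cdk8 is the cyclin-dependent kinase of Mediator, the coactivator complex that links enhancer-bound transcription factors to Pol II. The kinase sits in a module that can leave the core complex, and Mediator with that module is known to bind Pol II less readily. Med26 is a subunit of the core complex that is linked to the recruitment of elongation factors. Cbx3, also called HP1 gamma, is a chromodomain protein that binds methylated histone H3 and is found in heterochromatin and in transcribed genes.

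The shared regions were few among all Cdk8 regions but held much of its signal. They made up 9.99% of the control regions outside the left-out stretches. Of the length of the whole control list, these stretches included, they made up 25.3%. They held 40.0% of the summed Cdk8 signal of the Cbx3 siRNA list and 43.1% of that of the control list. Of the 2461 windows that both arms listed anywhere, 1972 lay in shared regions (80.1%).

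Both Cdk8 values chose the regions, so what follows on Cdk8 is a description with no test. Signal is the value that the authors gave each window, and a region's signal is that of its highest window. From the spacing of the values, 1 read was inferred to carry a signal of 1.41 in both arms, and the lowest listed value was 6.01 in both. The median highest window of a shared region held the equivalent of 12.1 reads after Cbx3 siRNA and 13.2 reads in the control. At 13 reads in each arm the 95% counting interval of a ratio of 1 runs from 0.427 to 2.34. Fold differences at single regions of that depth are therefore within counting error unless they are larger than this. That interval covers counting error only, as do all others below.

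Cdk8 signal at the shared regions was close to even between the arms. It ranged from 6.52 to 367 with a median of 17.1 after Cbx3 siRNA, and from 6.21 to 377 with a median of 18.6 in the control. The 4928 control regions that the Cbx3 siRNA list lacked, called control-only regions, had a median of 7.76. The log2 difference (Cbx3 siRNA minus control) had a median of 0.02, with quartiles of -0.31 and 0.31 and a range of -1.47 to 1.53. Signal was higher after Cbx3 siRNA at 280 shared regions, lower at 265 and equal at 2. It was at least 1.5-fold higher at 62 (11.3%) and at least 1.5-fold lower at 66 (12.1%). Among all 633 Cdk8 regions of both arms, the left-out stretches included, 12.3% were higher and 10.7% lower by this measure. In the 86 regions of both arms within the left-out stretches, the medians were 36.6 after Cbx3 siRNA and 30.5 in the control, with 16 regions at least 1.5-fold higher and 2 lower.

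The spread of the difference was smallest at the strongest regions. Regions were grouped by the geometric mean of their signals in both arms, a grouping chosen after seeing the data. At the 65 with a mean of 50 or more, the SD of the log2 difference over regions was 0.29 and 4 passed 1.5-fold (6.15%). At the 166 with a mean from 20 to 50 the SD was 0.51 and 43 passed (25.9%). At the 316 below 20 the SD was 0.53 and 81 passed (25.6%), so these 2 groups were alike in spread.

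**Figure D1:**
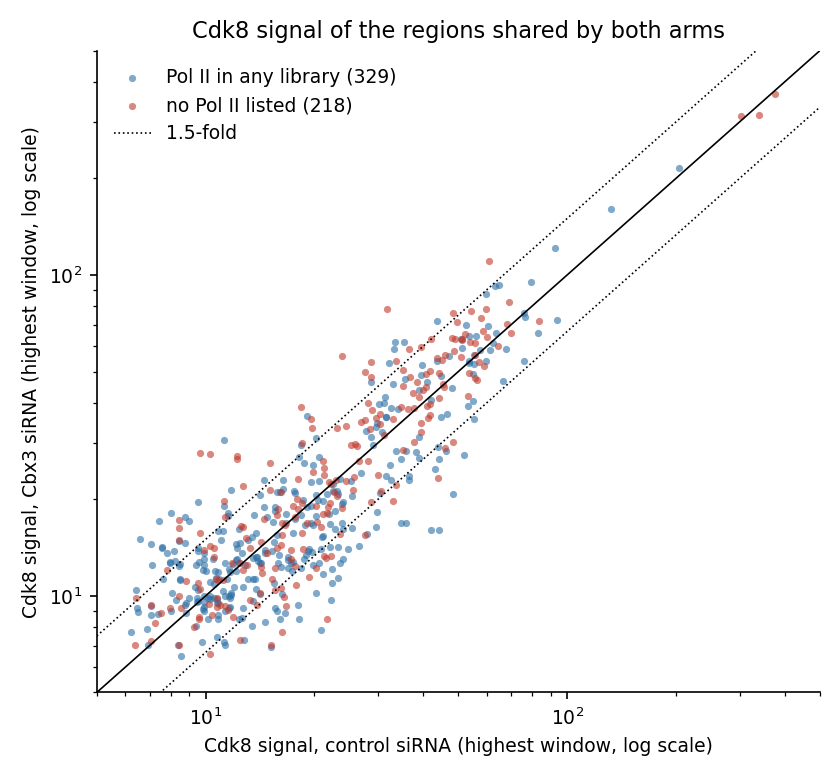
Cdk8 signal of each of the 547 shared regions after Cbx3 siRNA (vertical axis, log scale) against control siRNA (horizontal axis, log scale), coloured by whether any Pol II library was listed on the region. Dotted lines mark 1.5-fold differences, and 419 regions lie between them.

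The highest Cdk8 windows of the arms lay close together at the shared regions, which overlap by rule. The highest windows of the arms were at most 50 bp apart, 1 window, at 464 of the 547 regions (84.8%), in the same window at 221 and more than 200 bp apart at 23. Over the 547 regions, Pearson's r between the arms' log2 signals was 0.88 and Spearman's rho 0.83, and Spearman's rho of the listed lengths was 0.61. The points share their libraries. The rule kept only regions that overlap and lie above the minimum in both arms, so these values and distances describe the selected regions.

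The shared regions were narrow. Their listed length had a median of 200 bp in both arms, with a range of 50 to 1250 bp after Cbx3 siRNA and 50 to 1400 bp in the control. They were longer after Cbx3 siRNA at 212 regions, shorter at 203 and equal at 132. A single window was listed at 44 shared regions after Cbx3 siRNA and at 47 in the control (8.59%). Of the control-only regions, 3475 were a single window (70.5%).

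The portion of control regions that was shared followed the control signal. The shared regions were divided by control signal into 4 classes of nearly equal size. In the range of the lowest class (6.21 to 11.6), 137 were shared and 4719 were control-only, a shared portion of 2.82%. From 11.7 to 18.5 it was 42.5%, from 18.6 to 32.9 it was 89.0%, and from 33.1 to 377 it was 94.5%. Just inside the rule, the weakest shared region was chr2:29921951-29922000, with 7.73 after Cbx3 siRNA and 6.21 in the control. The next was chrX:45696851-45696900, with 7.05 after Cbx3 siRNA and 6.37 in the control. Just outside it, the strongest control-only regions were chr9:3025501-3025550 (control signal 173), chr9:3026601-3026650 (91.9) and chr2:98505351-98505400 (80.0). Of the shared regions, 122 shared only 50 bp with the other arm, and 211 control-only regions lay within 500 bp of a region listed after Cbx3 siRNA.

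Of the 10 shared regions with the highest signal in their lower arm, a choice that favours regions even between the arms, the highest lay on chromosome 9 from 35112801 to 35113100, with 367 after Cbx3 siRNA and 377 in the control. A pair on chromosome 2 followed: 98502451 to 98503050 had 315 after Cbx3 siRNA and 339 in the control, and 98506451 to 98507450 had 313 after Cbx3 siRNA and 303 in the control. No Pol II library was listed on these 3 regions, while Cbx3 set 2 reached 34161, 51947 and 291644 there, against a median of 13.1 over all set 2 regions. Since the input libraries were not used, signal not particular to an antibody cannot be told apart at these sites.

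The next 3 held Cbx3, and Pol II of untreated cells, but no Pol II of the control arm. They lay on chromosome 3 from 5860501 to 5860900 (216 after Cbx3 siRNA and 204 in the control), chromosome 11 from 108872901 to 108873450 (161 after Cbx3 siRNA and 132 in the control), and chromosome 5 from 147072501 to 147073000 (121 after Cbx3 siRNA and 92.7 in the control). Pol II after Cbx3 siRNA was listed on the regions of chromosomes 3 and 11 and not on that of chromosome 5. The other 4 had control signals of 76.1 to 93.5. All 10 lay within 1.5-fold of even, and the 95% counting interval of the ratio included 1 at each. The control-only regions of 173, 91.9 and 80.0 named above were as strong in the control and were not listed after Cbx3 siRNA. Each was a single window of 50 bp. All 8 control-only regions in the highest class of control signal, these included, held Cbx3 set 1 and no Pol II. Each of the 8 lay on a set 1 region that overlapped set 2, but set 2 itself lay on 6. Signal not particular to an antibody cannot be told apart there either.

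The largest differences in either direction were as follows. Cdk8 was lower after Cbx3 siRNA on chromosome 15 from 44259401 to 44259550, with 16.0 after Cbx3 siRNA and 44.3 in the control, a ratio of 0.362 (95% counting interval 0.161 to 0.725). On chromosome 8 from 113443401 to 113443700 it had 16.0 after Cbx3 siRNA and 41.9 in the control, and on chromosome 11 from 115891351 to 115891650 it had 20.7 after Cbx3 siRNA and 48.2 in the control. At the other 2 of the 5 largest falls, on chromosome 8 from 112089351 to 112090000 (7.81 after Cbx3 siRNA and 20.9 in the control) and chromosome 7 from 19945851 to 19945950 (8.46 after Cbx3 siRNA and 21.7 in the control), the interval of the ratio included 1. Pol II of any library lay on 4 of these 5 regions and Med26 of the control arm on 2.

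Cdk8 was higher after Cbx3 siRNA on chromosome 6 from 128748901 to 128749000, with 28.0 after Cbx3 siRNA and 9.65 in the control, a ratio of 2.90 with an interval that began at 1.16. On chromosome 9 from 44689401 to 44689500 it had 30.5 after Cbx3 siRNA and 11.2 in the control, and on chromosome 4 from 119960501 to 119960650 it had 27.8 after Cbx3 siRNA and 10.3 in the control. The other 2 of the 5 largest rises, on chromosome 11 from 68855201 to 68855450 and chromosome 19 from 12085501 to 12085750, share their Cbx3 siRNA region with a stronger neighbour. Their log2 differences were 1.30 and 1.22 by the rule, but 0.09 and 0.48 when the Cbx3 siRNA window was taken inside the control region. Of the 547 regions, 6 shared a Cbx3 siRNA region in this way. With that change the median over all shared regions was -0.03, with 51 at least 1.5-fold higher and 71 at least 1.5-fold lower.

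Some shared regions lay in tight groups along the chromosomes. Groups of neighbours at most 10 kb apart, called clusters, numbered 31 and held 89 of the 547 shared regions (16.3%), and 14 clusters of 3 or more held 55. A shared region also lay within 10 kb of 63 of the 4928 control-only regions (1.28%). The median gap between neighbours in a cluster was 1650 bp (250 to 9750 bp), and 23 of the 58 gaps were at most 1 kb. The share in clusters was 4.38% in the lowest class of control signal, then 9.56%, 16.8% and 34.3% in the highest.

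The largest clusters varied in how even their regions were. A cluster on chromosome 1 from 172964001 to 172975200 held 5 regions with no Pol II listed on any. Their Cdk8 signals, in order along the chromosome, were 55.6, 47.2, 45.7, 61.2 and 34.4 after Cbx3 siRNA and 50.8, 56.3, 45.3, 55.6 and 30.5 in the control. The 2 arms differed by less than 1.5-fold at each of these regions.

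A cluster on chromosome 17 from 23677801 to 23687400 also held 5 regions with no Pol II listed on any. Pol II of any library lay 101 bp from chr17:23684251-23684500 and 451 bp from chr17:23683351-23683650. The Cdk8 values of the 5 follow. Their signals were 45.2, 41.5, 54.5, 58.9 and 41.9 after Cbx3 siRNA and 35.2, 44.1, 45.1, 36.5 and 53.2 in the control. The clusters of 6 were less even. In chr11:68923901-68938850, with 1 region at Pol II, signals ran from 19.7 to 66.1 after Cbx3 siRNA and from 11.2 to 64.2 in the control. In chr19:12076751-12086850, with 2 regions at Pol II, they ran from 18.2 to 56.1 after Cbx3 siRNA and from 21.7 to 55.4 in the control. In each of these a pair of neighbouring control regions shared 1 Cbx3 siRNA region, of 550 bp on chromosome 11 and 1250 bp on chromosome 19. Clusters of 4 were chr14:51702451-51710450, chr3:96132551-96145200 and chr3:96301601-96305600, with Pol II on 1 of these 12 regions. Pol II also lay 201 bp from chr14:51710201-51710450 and 51 bp from chr3:96304301-96304450.

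**Figure D2:**
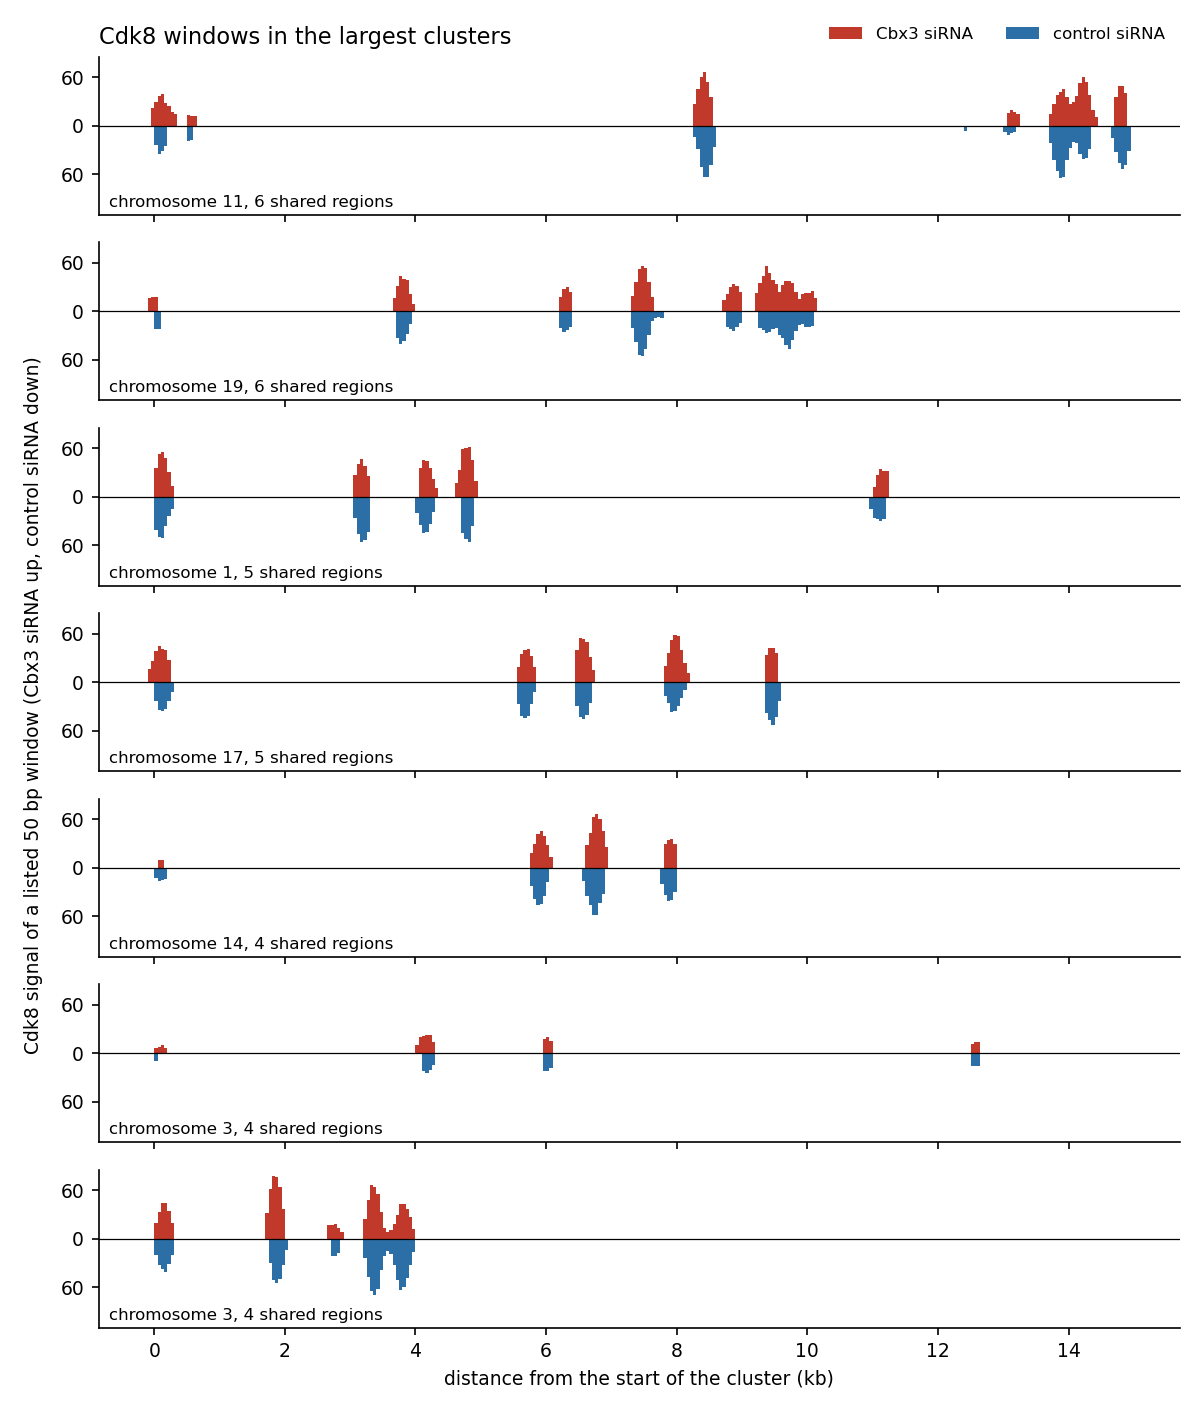
Cdk8 signal of each listed 50 bp window, upward after Cbx3 siRNA and downward in the control, in the 7 clusters with 4 or more shared regions, by distance in kb from the start of the cluster. Most peaks stand at matching places in both arms; pairs of neighbours on chromosomes 11 and 19 join into 1 region after Cbx3 siRNA.

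On the scale of 1 Mb, shared regions fell in 375 stretches, and 13 stretches with 5 or more held 85. The stretch from 96 to 97 Mb of chromosome 3 held 14, of which 1 had Pol II, and 14 of its 17 control regions were thus shared. The stretch from 68 to 69 Mb of chromosome 11 held 10 (2 with Pol II), and that from 128 to 129 Mb of chromosome 6 held 7, with Pol II on none and no control-only region beside them.

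Clustered regions had more Cdk8 signal than the others. Their median Cdk8 signal was 40.9 after Cbx3 siRNA and 35.2 in the control, and that of the 458 regions outside clusters was 15.5 after Cbx3 siRNA and 16.9 in the control. Their log2 difference had a median of 0.14, with 13 regions at least 1.5-fold higher and 2 lower, against -0.02, with 49 higher and 64 lower, outside clusters. Taking the Cbx3 siRNA window inside the control region gave a median of 0.13, with 10 higher and 2 lower. Among regions with a signal of 20 or more in both arms the medians were 0.14 for 64 clustered regions and 0.04 for 135 others. The cluster median was above 0 in 24 of 31 clusters and below 0 in 7. Members of a cluster share their surroundings and are not replicates, and with 1 library per arm no test can be given.

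Pol II was listed on most shared regions, but in clusters at a share near that of all control Cdk8 regions. Any of the 3 Pol II libraries was listed on 329 of 547 (60.1%, 95% Wilson interval 56.0 to 64.2%), against 22.7% of all control Cdk8 regions outside the left-out stretches and 18.5% of the control-only ones. It lay on 17 of 89 clustered regions (19.1%, 12.3 to 28.5%) and on 312 of 458 others (68.1%, 63.7 to 72.2%). Of the 31 clusters, 18 had no Pol II on any region. Within 1 kb, Pol II of the control arm was listed at 37 of 89 clustered regions (41.6%) and 373 of 458 others (81.4%). At control-only regions that share was 24.1%. By library, Pol II lay on 266 shared regions after Cbx3 siRNA (48.6%, against 17.8% of all), on 285 in the control (52.1%, against 21.1%) and on 84 in untreated cells (15.4%, against 7.01%). All 3 libraries were listed on 76 (13.9%, against 6.65%).

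Cdk8 signal and Pol II ran in opposite order within the shared regions. The share with Pol II of any library was 70.8% in the lowest class of control Cdk8 signal, then 61.8%, 58.4% and 49.6% in the highest. In the highest class, 37 of 69 regions without Pol II lay in clusters (53.6%), against 10 of 68 regions with Pol II (14.7%). The Cdk8 medians were 15.1 after Cbx3 siRNA and 16.7 in the control at regions with Pol II. At the 218 regions without Pol II they were 22.2 after Cbx3 siRNA and 21.7 in the control.

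The excess of Pol II over control-only regions was largest at low Cdk8 signal. At control signals from 6 to 8, 19 of 27 shared regions had Pol II (70.4%, 51.5 to 84.1%), against 282 of 2731 control-only regions (10.3%, 9.24 to 11.5%). From 10 to 12 it lay on 69.4% of 62 shared and 49.8% of 327 control-only regions. From 15 to 20 it lay on 59.3% of 91 shared and 61.9% of 42 control-only regions, with overlapping intervals. Above 20 the control-only regions were few. From 20 to 30 Pol II lay on 53.1% of 96 shared and 33.3% of 12 control-only regions. From 30 to 50 it lay on 49.5% of shared and 0 of 3 control-only regions, and from 50 on 55.7% and 0 of 5. Width moved with the excess at low signal: 16 of the 27 shared and 2358 of the 2731 control-only regions from 6 to 8 were single windows. Among regions of 1 window, Pol II lay on 31 of 47 shared (66.0%) and 434 of 3475 control-only regions (12.5%). Among those of 2 windows it lay on 62 of 104 shared (59.6%) and 309 of 1169 control-only regions (26.4%). Among regions of 3 or more windows, Pol II lay on 236 of 396 shared (59.6%) and 171 of 284 control-only regions (60.2%). The part of width in the overall excess was not tested.

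**Figure D3:**
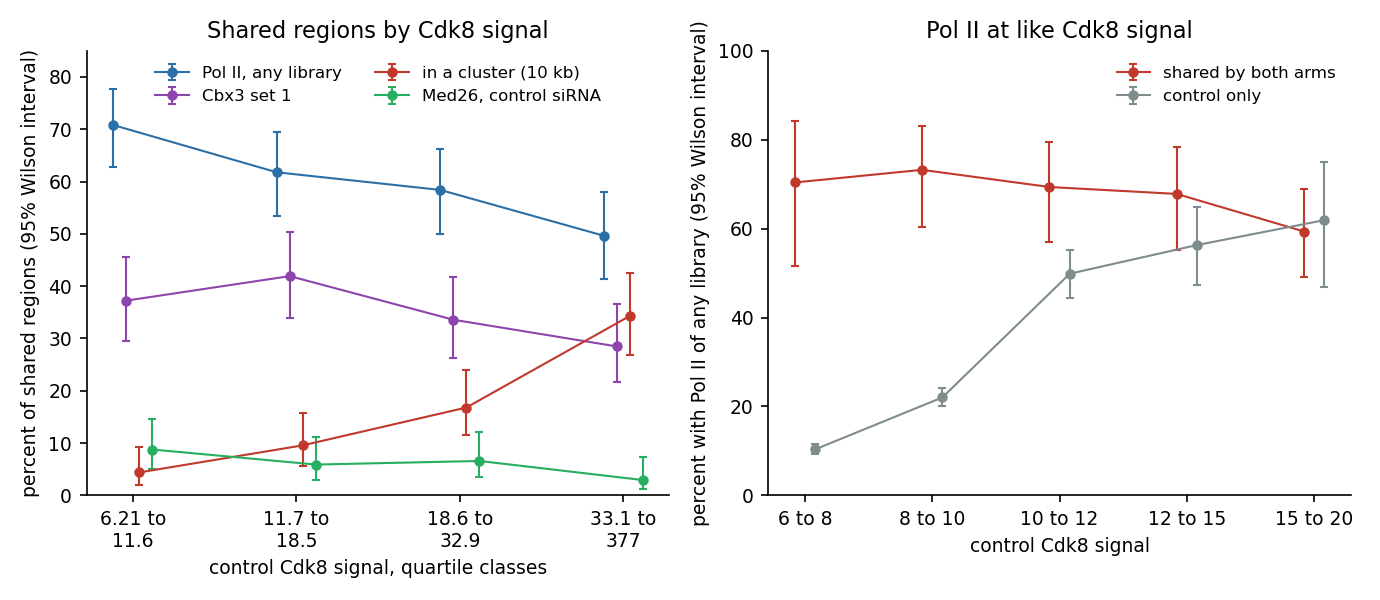
Left, percent of shared regions with Pol II, with Cbx3 set 1, with Med26 of the control arm or in a cluster, by class of control Cdk8 signal. Right, percent with Pol II among shared and control-only regions in narrow classes of control Cdk8 signal from 6 to 20. Bars are 95% Wilson intervals; the Pol II share falls from 70.8 to 49.6% across the classes while the clustered share rises from 4.38 to 34.3%.

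Where Pol II was listed, it lay around the Cdk8 peak. At the 285 shared regions with control Pol II, the highest Pol II window was a median of 150 bp (quartiles 100 and 200 bp) from the highest Cdk8 window, and at most 100 bp away at 99 (34.7%). These Pol II regions had a median listed length of 450 bp, against 300 bp for all control Pol II regions. At shared regions with Pol II of any library, control Pol II windows covered the Cdk8 peak itself at 59.0% of regions and were most frequent 100 bp to its left (62.0%). Left means toward lower coordinates, as the regions carry no strand.

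Shared regions without Pol II often had it close by. Of the 218, 106 had a Pol II region of any library within 1 kb (48.6%), and the median distance over the 218 was 1426 bp. Of the 4014 control-only regions without Pol II, 7.92% had one within 1 kb, and their median distance was 40701 bp. Pol II of untreated cells was also more often beside than on the shared regions. It lay on 84 but within 250 bp of 210 (38.4%, against 15.8% of all control Cdk8 regions). The lowest listed value was 9.02 in that library and 6.01 in both siRNA Pol II libraries.

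**Figure D4:**
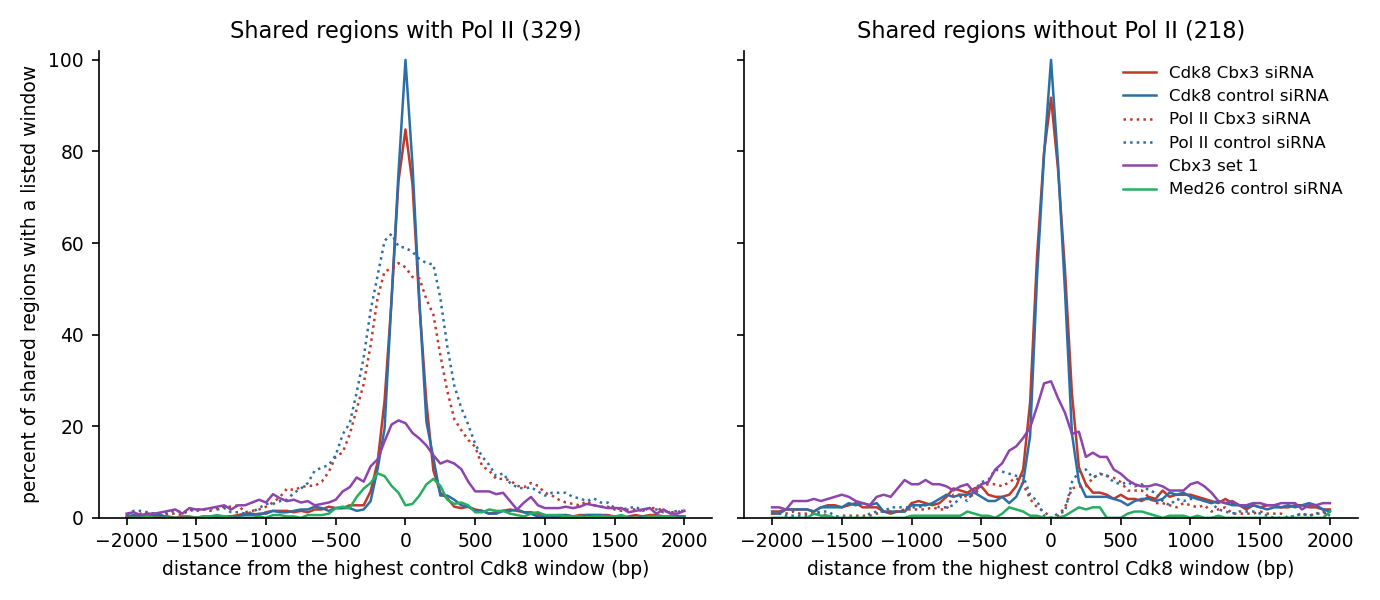
Percent of shared regions with a listed window of each library, by distance in bp from the highest control Cdk8 window, for the 329 regions with Pol II (left) and the 218 without (right). Pol II spreads wider than Cdk8 in the left panel, and control Med26 is at 2.74% at the Cdk8 peak and 9.73% 200 bp to its left.

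After Cbx3 siRNA, Pol II at the shared regions was lower to about the same degree as elsewhere. Of 288 control Pol II regions on shared Cdk8 regions, 252 were also listed after Cbx3 siRNA (87.5%, 83.2 to 90.8%), against 67.9% of all 16073 control Pol II regions and 797 of 852 at control-only Cdk8 regions (93.5%). The log2 difference had a median of -0.32 at shared regions, -0.33 at control-only Cdk8 regions and -0.29 over all 10915 Pol II regions of both arms. Pol II was lower at 203 of the 252 (80.6%, against 76.5% of all). It was at least 1.5-fold lower at 67 (26.6%, against 21.5%) and at least 1.5-fold higher at 3 (1.19%, against 3.01%).

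Cdk8 and Pol II differences did not run together from region to region. At the 223 shared regions with Pol II in both arms, Pol II had a median of 22.0 after Cbx3 siRNA and 27.8 in the control, a median log2 difference of -0.34, and was lower at 180. Cdk8 at the same regions had a median log2 difference of -0.04 and was lower at 122. Both were lower at 100 regions and both higher at 21, Pol II was lower and Cdk8 higher at 80, and the reverse held at 22. Over these 223 regions Pearson's r and Spearman's rho between the log2 differences were both -0.02. The points share 4 libraries, and most lie at few Cdk8 reads.

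**Figure D5:**
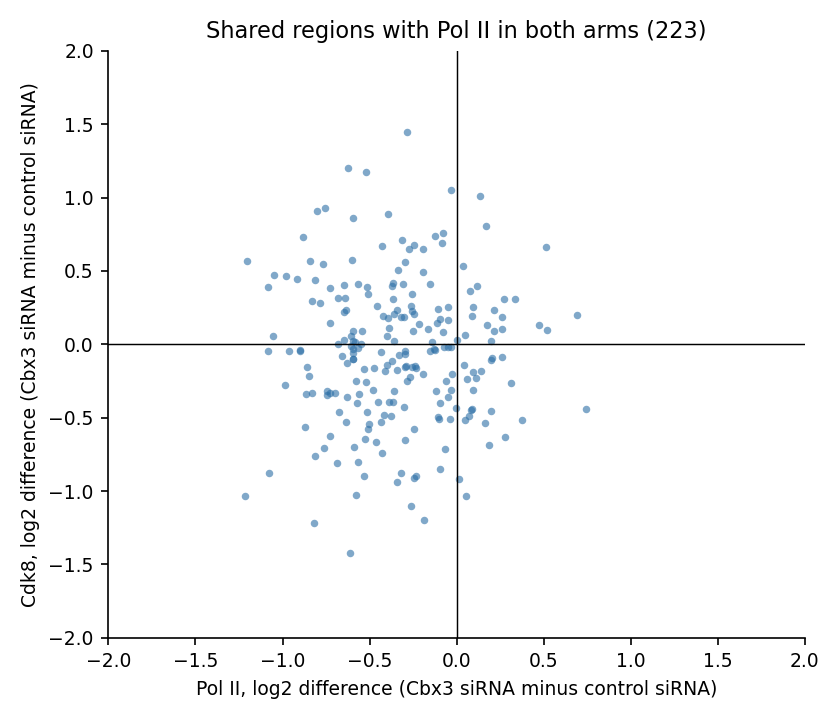
Log2 difference (Cbx3 siRNA minus control) of Cdk8 (vertical axis) against that of Pol II (horizontal axis) at the 223 shared regions with Pol II in both arms, 1 point per region. Points lie mostly left of 0 on the Pol II axis (180 of 223) and on both sides of 0 on the Cdk8 axis.

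Med26 was seldom listed on the shared regions and more often beside them. The Med26 list was much shorter after Cbx3 siRNA (2721 windows) than in the control (15546 windows). On the shared regions themselves Med26 was listed at 6 after Cbx3 siRNA (1.10%, against 0.493% of all control Cdk8 regions) and at 33 in the control (6.03%, interval 4.33 to 8.35%, against 2.78%). The difference in the control moved with Cdk8 signal. In the lowest class of control Cdk8 signal, control Med26 lay on 8.76% of shared and 2.18% of control-only regions. In the next class Med26 lay on 5.88% of shared and 8.70% of control-only regions. Within 500 bp it was listed at 35 after Cbx3 siRNA (6.40%, against 2.74%) and at 155 in the control (28.3%, 24.7 to 32.3%, against 11.9%). Of the 155, 122 had Med26 beside the region and not on it, 9 of them on both sides. Control-only regions were much alike in this: of 494 with control Med26 within 500 bp, 375 had it beside and not on the region, 38 of them on both sides.

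The 2 Mediator subunits were listed side by side more often than on the same windows. At shared regions with Pol II, control Med26 windows were listed at 2.74% of regions at the Cdk8 peak, 9.73% at 200 bp to the left and 8.51% at 200 bp to the right. The share of all shared regions with control Med26 was 6.03% on the region, 14.4% within 100 bp, 25.8% within 250 bp (against 9.99% of all control Cdk8 regions) and 31.1% within 1 kb. Such shares cannot fall with distance, and at control-only regions they were 2.41%, 5.24%, 8.24% and 11.2%. Med26 within 500 bp was found at 132 of the 329 regions with Pol II (40.1%, 35.0 to 45.5%) and at 23 of the 218 without (10.6%, 7.13 to 15.3%). In clusters it was found at 11 of 89 (12.4%) and outside them at 144 of 458 (31.4%).

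Med26 near shared regions was mostly absent from the Cbx3 siRNA list, as it was elsewhere. Of 33 control Med26 regions on shared regions, 7 were also listed after Cbx3 siRNA (21.2%, 10.7 to 37.8%), against 23 of 118 on control-only Cdk8 regions (19.5%, 13.4 to 27.6%). Of 164 within 500 bp of a shared region, 16 were also listed (9.76%, 6.09 to 15.3%), against 8.61% of all 5990 control Med26 regions. The 16 had a median log2 difference of -0.69. Med26 was lower after Cbx3 siRNA at 15 of them and at least 1.5-fold lower at 11, against 93.6% and 58.7% of all 516 Med26 regions of both arms. Over the 33 shared regions with control Med26 its signal there ranged from 6.91 to 123 with a median of 10.8, close to the 9.64 over all control Med26 regions.

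Med26 of both arms lay on 3 shared regions (0.347% of all control Cdk8 regions had it). On chromosome 9 from 44689401 to 44689500, Med26 had 59.0 after Cbx3 siRNA and 123 in the control, the highest control value on a shared region, while Cdk8 had 30.5 after Cbx3 siRNA and 11.2 in the control. Pol II there had 33.3 after Cbx3 siRNA and 40.7 in the control, and Cbx3 set 1 had 71.4, so Cdk8 was higher where Med26 and Pol II were lower. The other 2 were chosen after their values were seen. On chromosome 7 from 147323401 to 147323650, Med26 had 12.5 after Cbx3 siRNA and 37.6 in the control, and Cdk8 had 14.0 after Cbx3 siRNA and 20.9 in the control. On chromosome 3 from 85377851 to 85378200, Med26 had 7.81 after Cbx3 siRNA and 7.22 in the control, and Cdk8 had 22.8 after Cbx3 siRNA and 25.2 in the control.

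Cbx3 of untreated cells lay on a minority of the shared regions. Set 1 was listed on 193 (35.3%, against 13.8% of all control Cdk8 regions) and set 2 on 81 (14.8%, against 6.01%). Cbx3 of both sets, meaning a set 1 region that overlaps set 2, lay on 61 (11.2%, 8.78 to 14.1%, against 4.82%), and neither set lay on 337 (61.6%, against 84%). As with Pol II, the difference moved with signal. In the lowest class of Cdk8 signal (6.21 to 11.6), set 1 lay on 37.2% of shared and 9.94% of control-only regions, and in the next (11.7 to 18.5) on 41.9% of shared and 42.9% of control-only regions. The median Cbx3 signal was 63.6 in set 1 and 33.7 in set 2 at shared regions, against 34.3 over all set 1 and 13.1 over all set 2 regions.

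The median Cdk8 difference was near 0 at shared regions with and without Cbx3. The rule kept only regions listed in both arms, so regions unlisted after Cbx3 siRNA could not enter. The median log2 difference was 0.03 at the 193 regions with set 1, 0.08 at the 61 with both sets and 0.00 at the 354 without set 1. Cdk8 was at least 1.5-fold higher at 10 and lower at 5 of the 61. At the 337 with neither set these counts were 35 and 48, a difference that was not tested. Pol II of any library lay on 59.1% of the regions with set 1 and on 60.7% of those without. Cbx3 of both sets lay on 6.08% of the regions with Pol II and on 18.8% of those without. In clusters, set 1 lay on 21.3%, and outside them on 38.0%.

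Counting all 9 libraries, 131 shared regions were listed for Cdk8 alone (23.9%, against 68.6% of all control Cdk8 regions with no other library). These had Cdk8 medians of 25.9 after Cbx3 siRNA and 25.3 in the control, above the medians of all shared regions in either arm. Clusters held many of them: 53 of 89 clustered regions were in no other library (59.6%). Of the 69 regions of the highest Cdk8 class without Pol II, 50 were in no other library. As with Pol II and Cbx3, the difference from control-only regions moved with signal. In the lowest Cdk8 class, 11.7% of shared and 75.9% of control-only regions were in no other library. In the next class these shares were 22.1% and 21.2%.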

How the data were processed

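Per the labels' protocols, chromatin was crosslinked with 1% formaldehyde, sonicated and precipitated with antibodies to Cdk8, Med26, Pol II or Cbx3. Each file deposited by the authors lists 50 bp windows with a signal value for 1 of 9 ChIP libraries, and the 7 input libraries were not analysed here. Bowtie and the build mm9 are named in the submitters' processing notes. How windows were tested, at which threshold and with which input is not given in the sources used here, nor is the aligner's version. Values were whole multiples of 1 step in each library, to within 0.05 of a step, and 50 steps were read as 1 read. The step was equal in both Cdk8 libraries (0.0282), which does not show equal depth, and total reads are unknown. The lists hold only windows above a minimum, so an unlisted window can hold signal.

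Windows at most 200 bp apart were merged, and an overlap was 1 bp or more. A shared region's Cbx3 siRNA value came from the strongest overlapping region. Shares carry 95% Wilson intervals, and ratios exact binomial intervals on inferred reads. All cover counting error only, since neighbouring regions share reads and are not replicates. With 1 library per siRNA arm, no p-value is given. The members and lists were chosen with earlier results of these data known. Regions were named by rule: the 10 highest in their lower arm, the 5 largest rises and falls, the 5 longest, the 5 largest clusters with ties kept, and those with Med26 of both arms and Cbx3 of both sets. Coordinates (mm9, 1-based) are as deposited. No region was assigned to a gene, since the available gene table has GRCm38 coordinates. In a simulated pair of lists with 5000 regions, an overlap of 40% was found as 40%, a log2 difference of 0.5 as 0.5 and a clustered share of 20.1% as 20.1%. The simulated lists had no counting noise and no minimum signal, so they checked the calculations alone. Software was matplotlib 3.10.9, scipy 1.17.1, pandas 2.3.3, numpy 2.4.6 and Python 3.11.15.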

Additional observations from a re-analysis of the deposited data

How the results depend on the processing

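Of 60 alternative values, 51 stayed within the interval of the reported value (for the number of regions, within 1.5-fold) and 9 moved outside it. The number of shared regions ranged from 466 (at least 2 windows in both arms) to 633 (both left-out stretches kept), and the median log2 Cdk8 difference from -0.03 to 0.05, so its sign was not settled. The share in clusters was 13.2% with windows merged up to 500 bp, 26.5% with both stretches kept and 21.8% with neighbours within 50 kb. The share with Pol II, 52.1% by the control library, was 45.5% with both stretches kept, 15.4% by the untreated library and 72.2% within 500 bp. The share with control Med26 was 28.3% within 500 bp. The share with Cbx3, 11.2% by both sets, was 35.3% by set 1 alone and 14.8% by set 2 alone. Leaving out the 4 regions above 1000 in Cbx3 set 2, and taking the Cbx3 siRNA window inside the control region, were chosen after seeing the data. No paired analysis was possible because an antibody had just 1 library in either arm. A difference at a single region of median depth is limited by its 12.1 reads after Cbx3 siRNA and 13.2 in the control.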

Other observations

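The 5 longest shared regions, by listed length in the shorter arm, included 3 from the same megabase of chromosome 11. The longest in the control lay on chromosome 1 from 173031851 to 173033400, with 1150 bp listed after Cbx3 siRNA and 1400 bp in the control, and signals of 52.9 after Cbx3 siRNA and 55.4 in the control. On chromosome 11, the regions from 68850401 to 68851550 and from 68853701 to 68854900 each had 1200 bp after Cbx3 siRNA and 1000 bp in the control. That from 68875701 to 68876750 had 850 bp after Cbx3 siRNA and 1050 bp in the control. The region on chromosome 3 from 19527951 to 19529150 had 1200 bp after Cbx3 siRNA and 1050 bp in the control. Pol II was listed on the regions of chromosomes 1 and 3 and on the last of the 3 on chromosome 11.

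Shared regions were unevenly spread over the chromosomes. Chromosome 11 held 58, or 15.1% of its control Cdk8 regions outside the left-out stretches, chromosome 7 held 50 (13.5%) and chromosome 6 held 41 (12.7%), against 9.99% overall. Chromosome X held 4 of its 25 control regions (16.0%). Chromosome 8 held 25 (6.44%), chromosome 13 held 12 (6.03%), and chromosome Y held 0 of its 5 control regions.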
